A study of Mus musculus with 9 samples.

Results

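The matrix metalloproteases (Mmp genes), the ADAMTS proteases (Adamts genes) and their tissue inhibitors (Timp genes) were followed across 3 groups of 3T3 fibroblasts, an immortalised line derived from mouse embryos. Members were taken by name: a probe set had to list a single gene symbol made of Mmp, Adamts or Timp and a number, and the probe set with the highest mean over the 9 arrays stood for its gene. This gave 44 genes (22 Mmp, 18 Adamts and 4 Timp genes) out of 19938 genes with a probe set of a single symbol, and 68 probe sets out of 23410 that were tested. *Mmp15* and *Adamts2* were not analysed here, and the ADAMTS-like genes, which lack a protease domain, were kept apart. The groups were Trap-80 knock-down cells stimulated for 1 h with TNF-α at 5 ng/ml (n = 3 arrays), wild-type cells given the same stimulation (n = 3) and unstimulated wild-type cells (n = 3). The knock-down cells carried an shRNA against Trap-80, and the cells called wild type carried an irrelevant shRNA, so that every group expressed a hairpin. The study worked with clonal lines, picked 1 clone per Trap-80 shRNA to study further, and used 1 of these shRNAs in its main experiments. It does not say outright that all 3 knock-down arrays came from that clone. If they did, the spread between these arrays does not include that between clones. A difference between clones and one that comes with the loss of Trap-80 cannot be told apart in any knock-down comparison. Resting knock-down cells were not analysed here, so that a difference present before stimulation and one in the response cannot be told apart. Values are log2 signals from Affymetrix Mouse Gene 1.0 ST arrays, on which a difference of 1 is a doubling of the signal. Fold values below are folds of array signal. They were not converted to expression levels with a PCR standard curve, as the study did. A gene is said to have risen or fallen where its adjusted p from the limma model of all 9 arrays was under 0.05.

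Mmp and ADAMTS proteins are zinc-dependent proteases that are made as inactive precursors and act outside the cell or on its surface. Mmp enzymes cleave collagens, gelatin, laminins and many other matrix and surface proteins, and are classed by substrate and by whether a membrane anchor holds them at the cell. ADAMTS enzymes are secreted, bind the matrix through thrombospondin-type repeats, and include cleavers of aggrecan and versican, trimmers of procollagen and the enzyme that cuts von Willebrand factor. TIMPs bind the catalytic site of active enzymes, and *Timp3* is unusual in being held in the matrix and in inhibiting ADAMTS enzymes as well. Fibroblasts are a main source of these proteins in connective tissue, and inflammatory cytokines such as TNF-α are known inducers of several of them. Trap-80, encoded by *Med17*, is a subunit of Mediator, the complex that links transcription factors to RNA polymerase II.

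The knock-down was visible on each array. *Med17* had log2 signals of 6.35, 6.22 and 6.17 in knock-down cells, 7.98, 7.93 and 7.77 in stimulated wild-type cells, and 8.10, 8.09 and 7.89 in unstimulated wild-type cells (knock-down difference -1.64, standard error 0.09, adjusted p = 4.8e-05; p = 0.1 in a two-sided exact permutation test, which can give no smaller value with 3 arrays in each group). The *Med17* signal in knock-down cells was 32.0% of that in stimulated wild-type cells. By quantitative PCR the study reports a deeper loss of Trap-80 mRNA, and its western blots did not detect the protein. The array signal is therefore not read here as the depth of the knock-down. The arrays had medians of 4.47 to 4.59 and correlated at 0.985 to 0.992 within groups. All 9 fibroblast markers lay above 4.51, the median of all probe set means, with means from 6.88 to 12.66, yet *Pdgfra*, the platelet-derived growth factor receptor α, fell by 1.89 in the knock-down (adjusted p = 9.5e-05), while *Thy1* rose by 2.09 (adjusted p = 4.8e-04) and *S100a4* by 0.55 (adjusted p = 0.011). Of the markers of other cells, 2 of 6 for macrophages and leukocytes (means 2.60 to 5.47), 0 of 4 for endothelium (3.25 to 3.60) and 1 of 4 for epithelium (2.82 to 4.54) were above that median. None of these 14 passed the test in any of the 3 comparisons, although *Csf1r* and *Krt19* had an unadjusted p under 0.05 in the knock-down difference. The defining markers *Ptprc*, *Pecam1* and *Epcam* had means of 3.20 to 3.24, 3.21 to 3.28 and 2.72 to 2.92 over the groups.

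Promoter sequences are shown for genes that passed the knock-down test and for a run of Mmp genes on chromosome 9 that share motif matches but passed no test. RefSeq promoters (GRCm38.p6, 250 bases before to 50 after the start) were at hand for 30 of the 44 genes, 33 promoters in all, and among the 5 genes that passed the knock-down test for *Adamts1* and *Adamts14*. The 3 motifs below were searched on both strands: the κB motif bound by NF-κB, AP-1 as TGANTCA, and the TATA box as TATAAA. The κB motif was in 1 of 33 promoters (*Mmp25*), against 4.5% of all 32851 promoters of the table. AP-1 matches were in 8 of 33 (24.2%), against 7.81% of all promoters, and TATA matches in 11 of 33 (33.3%), against 13.6%. In the lines below, capitals mark the AP-1 and TATA matches. *Adamts1* (chr16:85803064-85803363, minus strand), which fell in the knock-down, had 1 TATA match starting 32 bases before the start and no κB or AP-1 match, and *Adamts14* (chr10:61273370-61273669, minus strand), which rose, had none of the 3.
Adamts1: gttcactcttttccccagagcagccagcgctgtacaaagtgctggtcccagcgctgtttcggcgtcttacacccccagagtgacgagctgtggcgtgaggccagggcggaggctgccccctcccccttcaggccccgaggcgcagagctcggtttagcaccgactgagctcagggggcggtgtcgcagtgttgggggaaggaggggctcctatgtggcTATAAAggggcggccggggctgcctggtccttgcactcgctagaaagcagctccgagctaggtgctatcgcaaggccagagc
Adamts14: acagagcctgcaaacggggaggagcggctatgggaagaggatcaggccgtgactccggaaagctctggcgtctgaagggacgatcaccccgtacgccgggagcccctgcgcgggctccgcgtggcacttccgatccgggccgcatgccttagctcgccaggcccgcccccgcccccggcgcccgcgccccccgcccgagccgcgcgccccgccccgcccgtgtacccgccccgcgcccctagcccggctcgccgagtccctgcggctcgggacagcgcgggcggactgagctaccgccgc

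The remaining matches were concentrated in one stretch of the genome. In the RefSeq order of protein-coding genes, *Mmp13*, *Mmp12*, *Mmp1b*, *Mmp3*, *Mmp1a*, *Mmp10*, *Mmp8*, *Mmp27*, *Mmp20* and *Mmp7* follow each other on chromosome 9 with no other protein-coding gene between them. All 8 promoters with an AP-1 match belonged to this run, in which 8 of 12 promoters held one, against 0 of the 21 promoters of the other members. TATA matches were in 9 of the 12 and in 2 of the 21 (*Adamts1* and *Mmp21*). A match is a description of the letters and not of a bound site. Windows of 100 bases are given for a collagenase (*Mmp13*, chr9:7272414-7272513), stromelysins (*Mmp3*, chr9:7445722-7445821, and *Mmp10*, chr9:7502242-7502341) and matrilysin (*Mmp7*, chr9:7691990-7692089), all on the plus strand. Each window held an AP-1 match followed by a TATA match, as did those of *Mmp1a*, *Mmp1b* and *Mmp20*, which are not shown. In the windows shown, AP-1 began 35, 46, 63 and 63 bases before the start, and TATA 16, 7, 29 and 26 bases before it. *Mmp7* had a further TATA match outside the window, farther upstream and ahead of its AP-1 match.
Mmp13: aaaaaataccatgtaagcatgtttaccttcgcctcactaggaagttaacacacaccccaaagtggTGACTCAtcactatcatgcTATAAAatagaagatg
Mmp3: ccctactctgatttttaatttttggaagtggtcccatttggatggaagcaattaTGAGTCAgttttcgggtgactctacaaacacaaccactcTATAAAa
Mmp10: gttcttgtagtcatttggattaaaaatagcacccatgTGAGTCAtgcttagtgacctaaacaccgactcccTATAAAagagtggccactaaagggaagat
Mmp7: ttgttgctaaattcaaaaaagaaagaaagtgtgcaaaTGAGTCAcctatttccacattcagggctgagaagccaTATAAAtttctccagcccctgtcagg

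The 10 genes of the run were all dim and none of them passed the test in any comparison. Their means over the 9 arrays ran between 1.97 and 3.96, below 4.51, and no value on any array exceeded 4.04. Their knock-down differences lay between -0.36 and 0.21 (lowest adjusted p = 0.32), and their TNF-α responses between -0.20 and 0.32 (lowest adjusted p = 0.73). *Mmp3* (stromelysin-1), at the upper end of the TNF-α range, had 2.67 to 3.20 in knock-down cells, 2.92 to 3.46 in stimulated and 2.69 to 3.21 in unstimulated wild-type cells, so that all groups overlapped. Whether the probes of the related genes *Mmp1a* and *Mmp1b* also bind each other's transcripts was not tested. At such signals a low array value does not distinguish an absent transcript from one below the range of the probes.

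Among all 44 genes, 21 had a mean above 4.51: 7 Mmp genes, 11 Adamts genes and 3 Timp genes. They included *Mmp2*, *Mmp11*, *Mmp14*, *Mmp16*, *Mmp19*, *Mmp24* and *Mmp28*, the Adamts genes *Adamts1*, *Adamts3* to *Adamts7*, *Adamts9*, *Adamts10*, *Adamts12*, *Adamts14* and *Adamts17*, and *Timp1* to *Timp3*. No collagenase and no matrilysin was among them. Levels of different probe sets are not compared here, since probes differ in brightness.

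The comparison of stimulated knock-down with stimulated wild-type cells addressed whether the levels of these genes under TNF-α differed when Trap-80 was reduced. The proteoglycan-cleaving *Adamts1* and the related *Adamts6* fell 2.32-fold and 2.31-fold, gelatinase B (*Mmp9*) fell 1.64-fold and the membrane-type protease *Mmp16* fell 1.57-fold, while the procollagen N-propeptidase *Adamts14* rose 1.35-fold. These 5 of 44 genes (11.4%), 1 higher and 4 lower, stand against 5.96% of all tested probe sets (3.36% higher and 2.6% lower). Of the tested probe sets with a mean above 4.51, 9.97% passed, and of the 21 members above it 4 did. The median difference of the 44 genes was -0.07, against -0.02 for all probe sets. An unadjusted p under 0.05 was reached by 4 genes higher and 10 lower, against 9.34% and 8.09% of all probe sets. The knock-down arrays were all above the stimulated wild-type arrays for 4 genes and all below for 9, whereas 10.9% and 10% of all probe sets separated in these directions. Less RNA per cell and fewer cells expressing a gene cannot be told apart in these bulk samples.

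**Figure D1:**
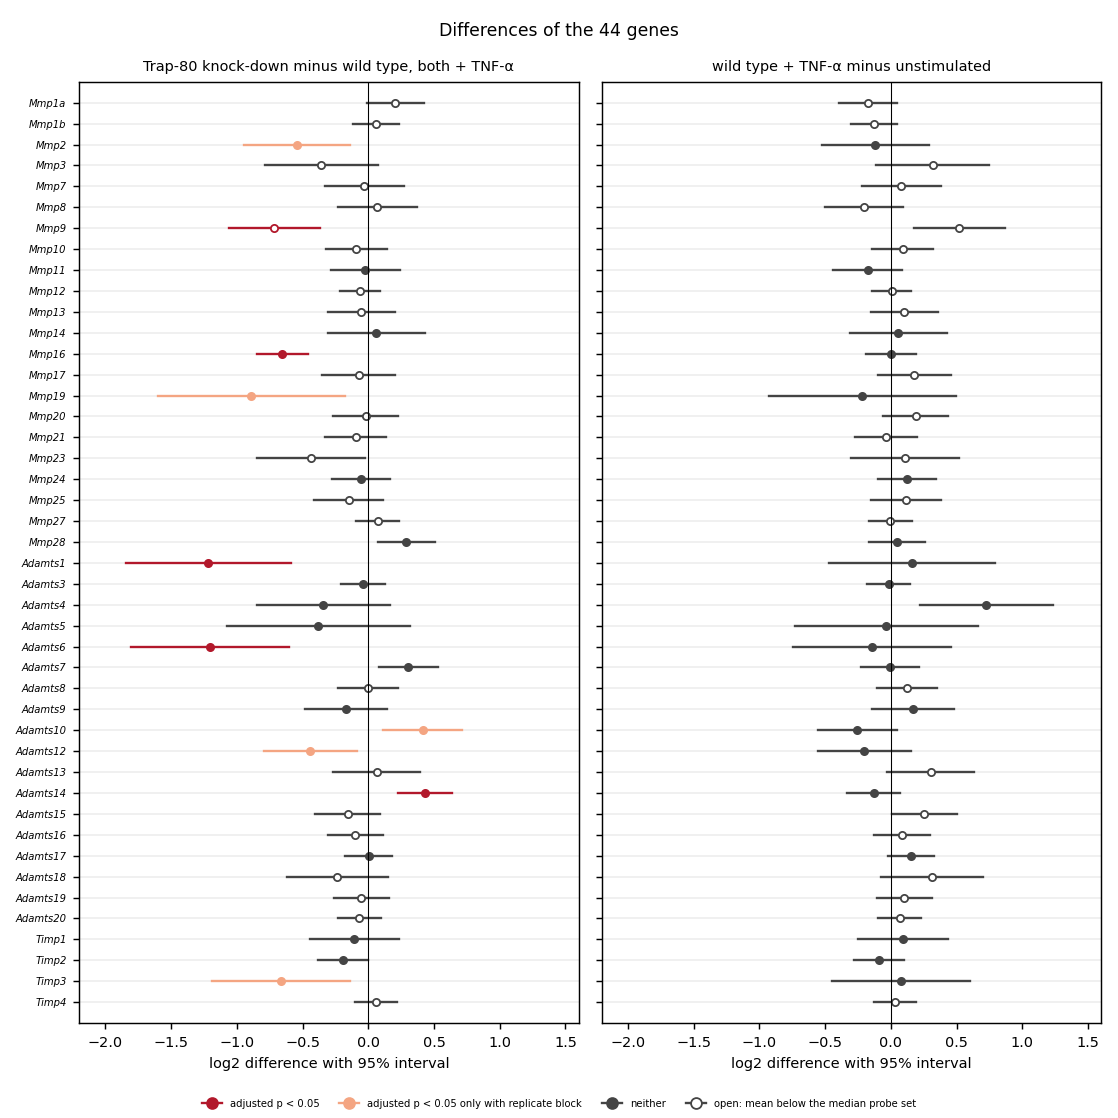
Log2 differences of the 44 genes with 95% intervals (x axes), for Trap-80 knock-down against wild type, both stimulated (left), and for stimulated against unstimulated wild type (right), from n = 3 arrays per group. Red marks an adjusted p under 0.05, light orange an adjusted p under 0.05 only in the model with the array number as a block, and open circles a mean below 4.51; on the left 5 genes are red, 4 of them below 0, and on the right none is.

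*Mmp16* had the lowest adjusted p of the 44 genes. It encodes a membrane-type Mmp that is anchored at the cell surface and can activate the precursor of Mmp2. Its signals were 7.75, 7.77 and 7.83 in knock-down cells, 8.35, 8.34 and 8.62 in stimulated wild-type cells and 8.44, 8.46 and 8.42 in unstimulated wild-type cells. The highest knock-down array lay below the lowest wild-type array. The difference was -0.65 (standard error 0.09, 95% interval -0.85 to -0.46, adjusted p = 0.0025). It passed the test without each stimulated array in turn (adjusted p 0.0049 to 0.015) and under each other setting tried. The other measured membrane-type proteases did not pass. *Mmp14*, which activates pro-Mmp2 with the help of Timp2, had 10.38, 10.25 and 10.51 in knock-down cells, 10.15, 10.14 and 10.67 in stimulated wild-type cells and 10.11, 10.15 and 10.53 in unstimulated cells (knock-down difference 0.06, 95% interval -0.31 to 0.43, adjusted p = 0.90), and *Mmp17*, *Mmp24* and *Mmp25* differed by -0.07, -0.06 and -0.15.

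*Adamts1*, a secreted cleaver of aggrecan and versican, had 7.57, 7.49 and 8.05 in knock-down cells, 8.69, 8.58 and 9.49 in stimulated wild-type cells, and 8.52, 8.52 and 9.24 in unstimulated wild-type cells. Array 3 was the highest in each group, yet the highest knock-down array remained below the lowest wild-type array. The difference was -1.22 (standard error 0.28, 95% interval -1.85 to -0.59, adjusted p = 0.035). Between arrays of the same number it was -1.12, -1.09 and -1.44, and with the array number as a block the adjusted p was 2.4e-04. Without the block the call was lost when any 1 of the 6 arrays was left out (adjusted p 0.051 to 0.13). *Adamts6*, a close relative of the fibrillin-binding *Adamts10*, followed the same layout, with 4.96, 4.47 and 5.35 in knock-down cells, 5.95, 5.88 and 6.57 in stimulated and 5.99, 6.16 and 6.68 in unstimulated wild-type cells. Its knock-down arrays lay below all wild-type arrays. Its difference was -1.21 (standard error 0.27, 95% interval -1.81 to -0.60, adjusted p = 0.030, or 9.0e-04 with the block). Its call was lost when any array but knock-down array 3 was left out (adjusted p 0.031 to 0.10 over the 6 omissions).

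*Mmp9*, gelatinase B, cleaves denatured collagen and basement membrane collagen, and is a well-known product of inflammatory cells. It had 4.50, 3.93 and 4.16 in knock-down cells, 4.90, 4.71 and 5.13 in stimulated wild-type cells and 4.30, 4.35 and 4.53 in unstimulated wild-type cells. Its signal was dim, with a mean of 4.50 just below the median of all probe sets. The knock-down arrays were all below the stimulated wild-type arrays but overlapped the unstimulated ones. The difference was -0.72 (standard error 0.15, 95% interval -1.06 to -0.37, adjusted p = 0.026), and the call was lost without knock-down array 2 or 3 or wild-type array 1 or 3 (adjusted p 0.015 to 0.093).

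*Adamts14*, which removes the amino-terminal propeptide of fibrillar procollagens, was the only gene of the families that rose in this comparison. Its signals were 5.70, 5.80 and 5.90 in knock-down cells, 5.51, 5.38 and 5.22 in stimulated wild-type cells and 5.44, 5.52 and 5.55 in unstimulated wild-type cells. The lowest knock-down array lay above the highest wild-type array. The difference was 0.43 (standard error 0.09, 95% interval 0.23 to 0.63, adjusted p = 0.025), and the call was lost without knock-down array 2 or 3 or stimulated wild-type array 2 or 3 (adjusted p 0.030 to 0.093). *Adamts3*, the other measured enzyme of this activity, differed by -0.04 (95% interval -0.21 to 0.12, adjusted p = 0.84). Of these 5 genes, *Mmp16* alone also passed when all 35557 deposited probe sets were tested and when only the 6 stimulated arrays were fitted, and the other 4 missed the threshold in both.

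**Figure D2:**
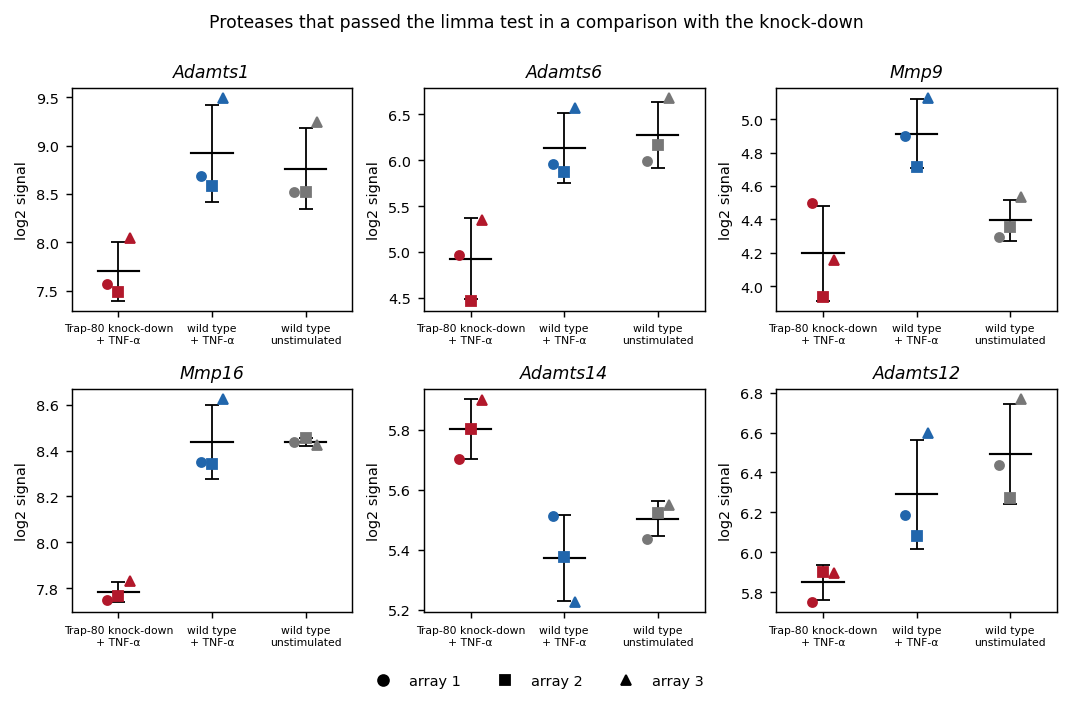
Log2 signal (y axes, a scale of its own for each gene) on the 9 arrays for the 6 proteases that passed the test in a comparison with the knock-down. Points are arrays 1 to 3, lines the group means and bars ± 1 SD (n = 3); the knock-down arrays of Adamts1, Adamts6, Mmp16 and Adamts12 lie below all wild-type arrays, and those of Adamts14 above them.

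A second group of genes passed only in the model in which arrays of the same number formed a block. That model called 10 members, 2 higher and 8 lower, where 9% of all probe sets passed (4.94% higher and 4.07% lower). Of these members, 2 higher and 7 lower had a mean above 4.51, and the share among all probe sets above 4.51 was not computed for this model. The block model retained the 5 genes above and added *Mmp2*, *Mmp19*, *Adamts12* and *Timp3* as lower and *Adamts10* as higher. Gelatinase A (*Mmp2*), the main gelatinase of resting fibroblasts, had 10.07, 9.88 and 10.13 in knock-down cells, 10.49, 10.34 and 10.86 in stimulated wild-type cells and 10.56, 10.42 and 11.06 in unstimulated wild-type cells. All its knock-down arrays were the lower ones, and its difference was -0.54 (standard error 0.18, 95% interval -0.95 to -0.14, adjusted p = 0.14; 0.011 with the block). *Mmp19*, a secreted protease that cleaves basement membrane proteins, had 5.47, 5.42 and 5.62 in knock-down cells, 6.25, 5.94 and 7.00 in stimulated wild-type cells and 6.26, 6.28 and 7.30 in unstimulated wild-type cells. Its wild-type arrays were widely spread while its knock-down arrays were not, and its difference of -0.89 (standard error 0.32, 95% interval -1.60 to -0.18) had an adjusted p of 0.17, or 0.018 with the block.

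*Timp3* encodes the matrix-bound inhibitor. Its signals were 9.41, 9.34 and 10.01 in knock-down cells, 10.06, 10.01 and 10.68 in stimulated wild-type cells and 10.01, 10.01 and 10.49 in unstimulated wild-type cells, and the groups overlapped, with array 3 the highest in each. Between arrays of the same number the knock-down difference was -0.65, -0.67 and -0.66. The difference of -0.66 (standard error 0.23, 95% interval -1.19 to -0.14) had an adjusted p of 0.16 without the block and 0.0013 with it. *Adamts12*, which like *Adamts7* cleaves cartilage oligomeric matrix protein, had 5.75, 5.90 and 5.90 in knock-down cells, 6.19, 6.08 and 6.60 in stimulated wild-type cells and 6.44, 6.27 and 6.77 in unstimulated wild-type cells (difference -0.44, standard error 0.16, adjusted p = 0.17; 0.044 with the block). *Adamts10*, which binds fibrillin microfibrils, had 6.78, 6.71 and 7.20 in knock-down cells, 6.47, 6.46 and 6.51 in stimulated wild-type cells and 6.65, 6.62 and 6.94 in unstimulated wild-type cells (difference 0.41, standard error 0.13, adjusted p = 0.13; 0.034 with the block). For *Adamts12* and *Adamts10* the stimulated groups did not overlap.

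**Figure D3:**
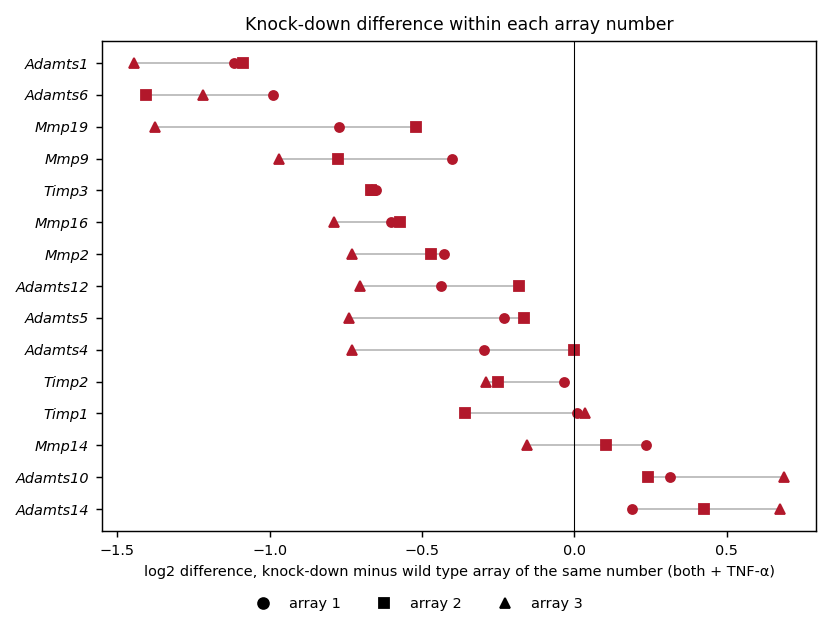
Knock-down difference within each array number (x axis, log2 signal of the knock-down array minus the stimulated wild-type array of the same number) for 15 genes of the families. The 3 points of Timp3 lie together near -0.66, and all 3 points lie below 0 for Adamts1, Adamts6, Mmp19, Mmp9, Mmp16, Mmp2 and Adamts12. The same holds for Adamts5 and Timp2, which passed neither with nor without the block.

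Array 3 was the highest in every group for a larger share of these genes than of all tested probe sets. It was the highest array of all 3 groups for 9 of the 44 genes (20.5%), against 10.0% of all tested probe sets, namely *Mmp2*, *Mmp14*, *Mmp19*, *Adamts1*, *Adamts4*, *Adamts5*, *Adamts6*, *Adamts10* and *Timp3*. In both wild-type groups together it was the highest for 16 genes (36.4%, against 16.2%). Neither the labels nor the methods say what an array number stands for, and its part in the differences was not tested beyond the block and the omission of single arrays.

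The inhibitors other than *Timp3* passed neither with nor without the block. *Timp1*, a secreted inhibitor of most Mmp enzymes, had 10.53, 10.29 and 10.33 in knock-down cells, 10.52, 10.65 and 10.30 in stimulated wild-type cells and 10.52, 10.61 and 10.06 in unstimulated wild-type cells. Its groups overlapped, with a knock-down difference of -0.11 (95% interval -0.45 to 0.24, adjusted p = 0.80). *Timp2*, the partner of Mmp14 in pro-Mmp2 activation, had 10.33, 10.19 and 10.26 in knock-down cells, 10.36, 10.44 and 10.56 in stimulated wild-type cells and 10.52, 10.44 and 10.67 in unstimulated wild-type cells. Its stimulated groups did not overlap, but the difference of -0.19 was small (95% interval -0.38 to -0.001, adjusted p = 0.29; 0.21 with the block). *Timp4* was dim, at 2.93 to 3.10 in knock-down cells, 2.93 on each stimulated wild-type array and 2.84 to 2.93 in unstimulated cells. The aggrecanase *Adamts5*, next to *Adamts1* in the RefSeq order of protein-coding genes, had 9.14, 8.94 and 9.46 in knock-down cells, 9.37, 9.11 and 10.20 in stimulated wild-type cells and 9.34, 9.28 and 10.16 in unstimulated wild-type cells (difference -0.38, 95% interval -1.08 to 0.32, adjusted p = 0.61; 0.10 with the block). Whether its difference was smaller than that of *Adamts1* was not tested.

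**Figure D4:**
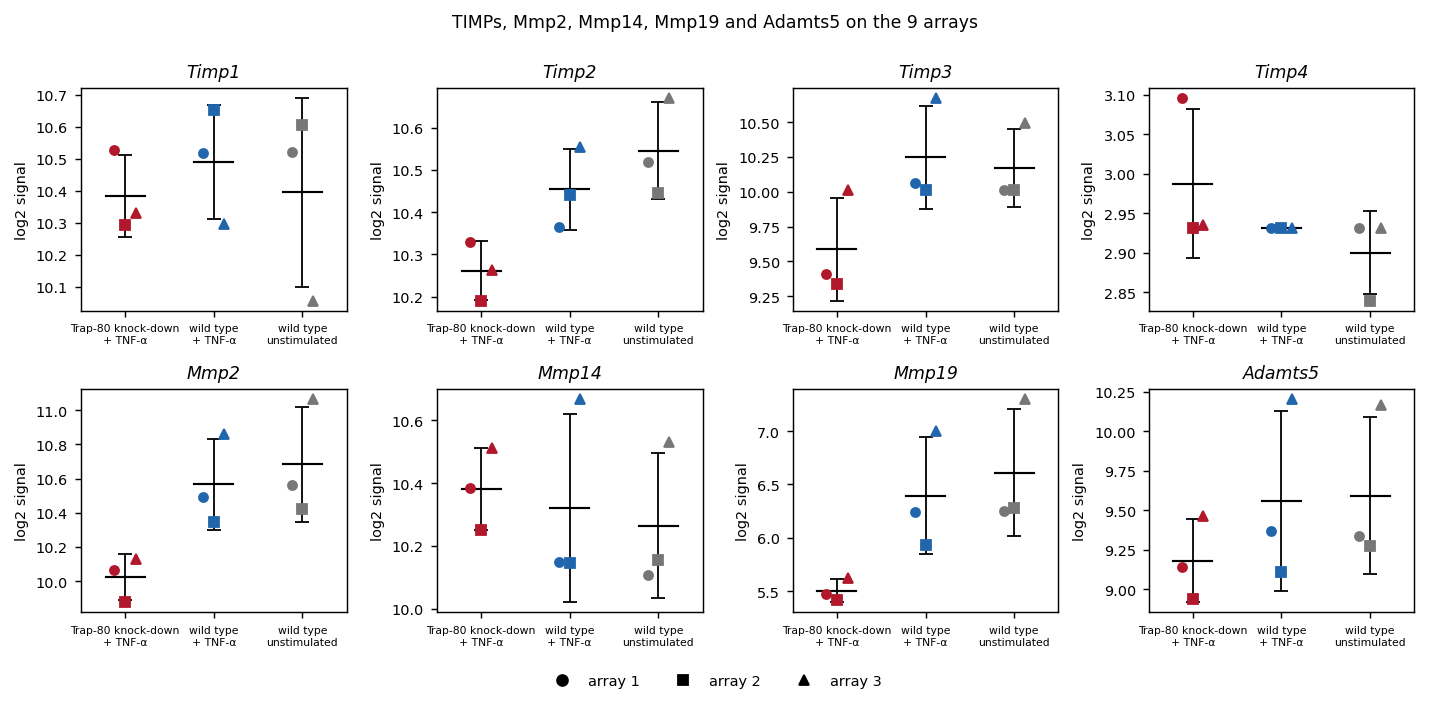
Log2 signal (y axes, a scale of its own for each gene) on the 9 arrays for Timp1 to Timp4, Mmp2, Mmp14, Mmp19 and Adamts5. Points are arrays 1 to 3, lines the group means and bars ± 1 SD (n = 3); array 3 is the highest of each group for Timp3, Mmp2, Mmp14, Mmp19 and Adamts5.

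*Adamts9*, a versican-cleaving enzyme, was measured by 6 probe sets, which did not give the same call. All 6 were lower in the knock-down, by -0.16 to -0.55, and 1 of 6 passed. That probe set, 10546454, had 6.46, 6.37 and 6.30 in knock-down cells, 7.07, 6.65 and 7.04 in stimulated wild-type cells and 6.80, 6.51 and 6.87 in unstimulated wild-type cells (difference -0.55, standard error 0.13, 95% interval -0.84 to -0.25, adjusted p = 0.044). Its call was lost without any 1 knock-down array or stimulated wild-type array 1 or 3 (adjusted p 0.019 to 0.16). The neighbouring sets 10546450 and 10546452 differed by -0.51 and -0.39 (adjusted p = 0.088 and 0.16) and passed with the block (0.017 and 0.029), as did 10546454 (0.014). The brightest set, 10546430, which stands for the gene in the counts, had 7.32, 7.15 and 7.07 in knock-down cells, 7.29, 7.24 and 7.52 in stimulated wild-type cells and 7.10, 6.97 and 7.48 in unstimulated wild-type cells (difference -0.17, 95% interval -0.48 to 0.14, adjusted p = 0.60). Sets 10546434 and 10546432 differed by -0.30 and -0.16 (adjusted p = 0.19 and 0.73). The stimulated groups did not overlap in 4 of the 6 sets. The intervals of the highest and lowest differences overlapped, and a difference between probe sets was not tested.

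**Figure D5:**
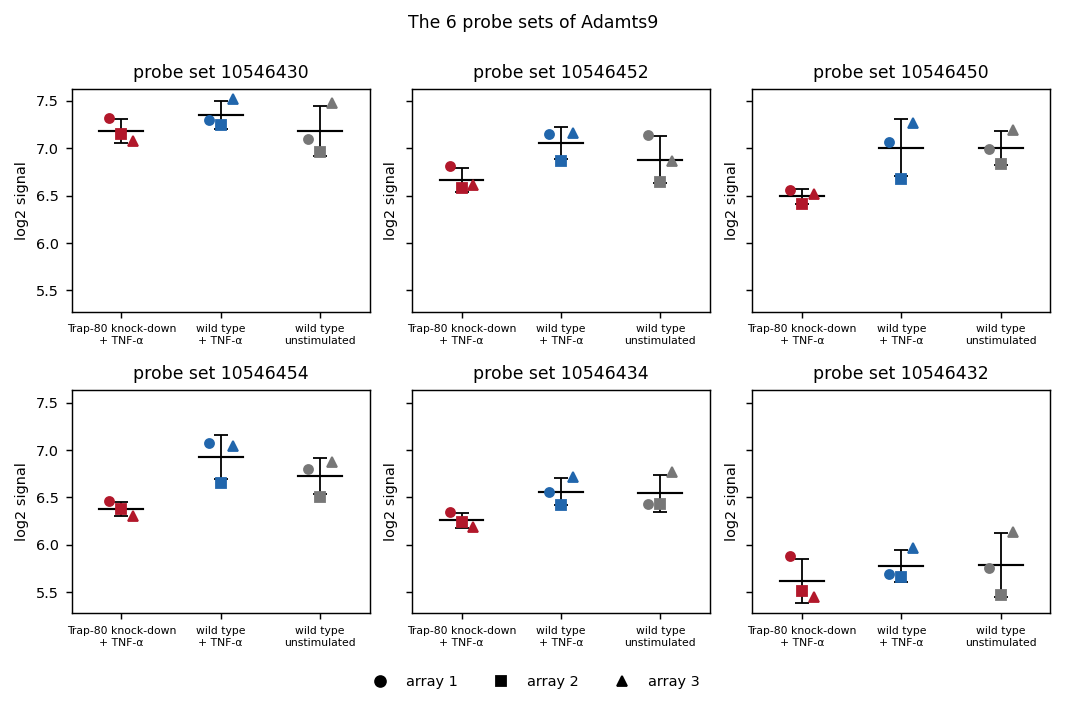
Log2 signal (y axes, 1 shared scale) of the 6 probe sets of Adamts9 on the 9 arrays. Points are arrays 1 to 3, lines the group means and bars ± 1 SD (n = 3); the knock-down mean lies below the stimulated wild-type mean in each panel, by 0.55 for set 10546454 and by 0.17 for set 10546430.

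The comparison of stimulated with unstimulated wild-type cells asked which of these genes responded within 1 h of TNF-α. None of the 44 passed the limma test, where 0.115% of all probe sets did (0.111% higher and 0.00427% lower). With the block none passed either, against 0.235% of all probe sets (0.218% higher and 0.0171% lower). The stimulated arrays were all above the unstimulated ones for 3 genes (*Mmp9*, *Adamts17* and *Adamts20*) and all below for 1 (*Adamts10*), whereas 4.01% and 6.18% of all probe sets separated in these directions. An unadjusted p under 0.05 was reached by *Mmp9*, *Adamts4* and *Adamts15*, all higher, and by no gene that was lower, against 3.52% and 3.58% of all probe sets. The median response of the 44 genes was 0.07, against -0.02 for all probe sets. *Mmp9* was 1.43-fold higher, and its stimulated arrays (4.90, 4.71 and 5.13) all lay above its unstimulated ones (4.30, 4.35 and 4.53), with a difference of 0.52 (standard error 0.15, 95% interval 0.17 to 0.87, adjusted p = 0.59; 0.34 with the block). The aggrecanase *Adamts4* had the largest response of the 44, with 6.11, 5.94 and 6.70 in stimulated and 5.23, 5.36 and 5.97 in unstimulated wild-type cells. The lowest stimulated and the highest unstimulated array overlapped, but each array was above its same-numbered partner, by 0.88, 0.57 and 0.73 (mean 0.73, standard error 0.22, 95% interval 0.22 to 1.23, adjusted p = 0.60; 0.16 with the block).

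*Adamts4* in stimulated knock-down cells, at 5.81, 5.94 and 5.97, lay between both wild-type means and differed from stimulated wild type by -0.34 (adjusted p = 0.50). *Adamts1* differed by 0.16 with TNF-α in wild-type cells (95% interval -0.47 to 0.79, adjusted p = 0.91), *Mmp16* by 0.00 (-0.19 to 0.19) and the 6 *Adamts9* sets by -0.01 to 0.20. The dim genes *Adamts13*, the cleaver of von Willebrand factor, and *Adamts18* had responses of 0.30 and 0.31 (adjusted p = 0.72 each). *Adamts10* had its 3 stimulated arrays (6.47, 6.46 and 6.51) below its unstimulated ones (6.65, 6.62 and 6.94), with a difference of -0.26 (adjusted p = 0.72). The responses of *Timp1*, *Timp2*, *Timp3* and *Timp4* were 0.09, -0.09, 0.08 and 0.03.

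The comparison of stimulated knock-down with unstimulated wild-type cells combined the line and the stimulation, and shares its arrays with both comparisons above. *Adamts6* fell 2.55-fold, *Mmp16* 1.57-fold and *Adamts12* 1.56-fold, and no member rose, where 8.25% of all probe sets passed (3.64% higher and 4.62% lower). The differences were -1.35 for *Adamts6* (standard error 0.27, adjusted p = 0.014), -0.65 for *Mmp16* (standard error 0.09, adjusted p = 0.0020) and -0.64 for *Adamts12* (standard error 0.16, 95% interval -0.99 to -0.29, adjusted p = 0.036). The call of *Adamts12* was lost without any 1 knock-down array or unstimulated array 1 or 3 (adjusted p up to 0.12), that of *Adamts6* only without knock-down array 1 (0.051), and that of *Mmp16* in no such case. *Adamts1* came close, at -1.06 (adjusted p = 0.0502; 3.5e-04 with the block). The block model called 8 members here, 1 higher and 7 lower, against 12.1% of all probe sets (5.18% higher and 6.87% lower): *Mmp2*, *Mmp19*, *Adamts1* and *Timp3* joined the 3 as lower and *Mmp28* as higher. All members called in this comparison, by either model, had a mean above 4.51, and the share among all probe sets above 4.51 was not computed here. *Mmp28*, epilysin, had 5.28, 5.49 and 5.36 in knock-down cells, 4.99, 5.08 and 5.20 in stimulated wild-type cells and 4.96, 4.97 and 5.20 in unstimulated wild-type cells. Its knock-down arrays lay above all wild-type arrays, and its difference was 0.34 (adjusted p = 0.066; 0.037 with the block). *Mmp9* and *Adamts14*, which had passed between stimulated cells, differed from unstimulated wild type by -0.20 (adjusted p = 0.54) and 0.30 (adjusted p = 0.084).

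Genes that act with these proteases were taken from 4 lists, of which none had a member that passed in the TNF-α comparison. Among 16 ADAM and astacin metalloproteases, related zinc proteases that are mostly anchored in the membrane, 2 fell in the knock-down and 0 rose (median difference -0.06), against 2.6% lower and 3.36% higher of all probe sets tested. *Adam23*, whose protease domain is inactive, had 4.39, 3.95 and 3.99 in knock-down cells, 5.61, 5.36 and 6.31 in stimulated wild-type cells and 5.61, 5.45 and 6.42 in unstimulated wild-type cells. Its knock-down arrays lay below all wild-type arrays. Its difference was -1.65 (adjusted p = 0.011; up to 0.053 without knock-down array 2 or 3). *Adam12* fell by 0.38 (adjusted p = 0.047; 0.056 to 0.14 without 1 array). None of the 7 ADAMTS-like genes passed (median -0.11). Among the 14 measured activators and other inhibitors of 17 listed, the plasminogen activator *Plau* rose by 1.33 and the proprotein convertase *Pcsk6* fell by 0.73 (adjusted p = 0.024 and 0.015; up to 0.10 and 0.069 without 1 array). *Furin*, a convertase that activates membrane-type and ADAMTS precursors, and *Reck*, a membrane-anchored Mmp inhibitor, did not pass, with differences of 0.24 and -0.05.

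Of 18 measured matrix substrates of 20 listed, 3 rose and 3 fell in the knock-down (median difference -0.10), against 3.36% higher and 2.6% lower of all probe sets tested. Of the 18, 16 lay above the median signal, where 9.97% of probe sets passed in either direction. *Nid1*, the basement membrane linker nidogen-1, had 10.18, 10.00 and 9.50 in knock-down cells, 11.19, 11.34 and 11.07 in stimulated wild-type cells and 11.24, 11.40 and 11.19 in unstimulated wild-type cells. It fell by 1.31 (adjusted p = 0.0019), as did the proteoglycan *Dcn* by 2.27 and the cartilage collagen *Col2a1* by 1.04. The basement membrane collagens *Col18a1*, *Col4a1* and *Col4a2* rose by 1.07, 0.52 and 0.57 (adjusted p = 0.0021, 0.017 and 0.039). The calls of *Col4a1* and *Col4a2* were lost without some or any of the 6 arrays (adjusted p up to 0.067 and 0.12), and the other 4 passed in each such case. The proteoglycans cut by ADAMTS enzymes, *Vcan* and *Acan*, differed by -0.76 and -0.56 and passed only with the block (adjusted p = 0.11 and 0.16 without it, 0.0058 and 0.0094 with it).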

How the data were processed

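Total RNA of 3T3 fibroblasts was measured on 9 Affymetrix Mouse Gene 1.0 ST arrays, from 3 independent samples for each of 3 groups. The authors deposited log2 signals made by RMA (no version given in the sources used here), which corrects background, normalizes arrays to one another and summarises probes; they were used as deposited. Of 35557 probe sets, 21789 listed a single gene, 1621 several and 12147 are unnamed here; the 23410 with a gene were tested, with no brightness filter. The 3 groups were fitted together with limma 3.58.1 in R 4.3.3 (lmFit, then eBayes with a prior of 3.20 degrees of freedom), with Benjamini-Hochberg adjustment across these probe sets and a threshold of 0.05, and 95% intervals came from the moderated t distribution. The fit was also run on simulated arrays with known changes. Their noise was independent between arrays, which leaves out the shared deviations described below. Precision is limited by having 3 arrays in a group, and differences had a median standard error of 0.10.

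Arrays sharing a number showed correlated deviations (0.147, 0.274 and 0.465 between the stimulated groups, 0.298, 0.110 and 0.403 between the wild-type groups, but 0.151, 0.002 and 0.221 between knock-down and unstimulated arrays), so a fit blocked by number accompanies the main one; the pairing rests on these correlations alone. Genes named in full were those passing in a comparison with or without the block, *Mmp9*, *Adamts1* and *Adamts9*, which the study lists, the TIMPs, and the 5 largest differences of each comparison. Members, lists and rules were chosen with earlier results of these data known. Alternatives were other sets of arrays and probe sets, median centring, the mean of a gene's probe sets, and an intensity trend with a robust prior. Single arrays of the groups compared were also omitted, and a form of the methods' filter on spread and unadjusted p was applied. That filter took the spread from the first group of a comparison alone, set against the mean of the second. A planned search for the zinc-binding motif in the proteins was not run.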

Additional observations from a re-analysis of the deposited data

How the results depend on the processing

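In the knock-down comparison, where 5 members passed, 10 did with the replicate block, 1 (*Mmp16*) with only the 6 stimulated arrays and 1 with all deposited probe sets, where p-values are adjusted over more tests. The methods' filter, in the form described above, adjusts no p-value and kept 13. The 5 genes of the main fit were kept by centring each array, by averaging the probe sets of a gene, and by the intensity trend with a robust prior. Each of the 5 has a single probe set, so averaging left their signals unchanged and was no check of their calls. The brighter probe sets gave 4. Leaving out single arrays gave 1 to 3. For the TNF-α response the count was 0 in each setting, single omissions included (0 to 0), except for 4 under the methods' filter (*Mmp9*, *Adamts10*, *Adamts15* and *Adamts17*). Against unstimulated wild type, 3 members passed, and 8 with the block, 7 among the brighter probe sets, 6 with the intensity trend, 11 under the methods' filter and 1 to 3 without single arrays. Over these settings, 1357 of 1491 values of single genes kept direction and side of the threshold, counting 44 values that never passed and changed sign by less than 1 standard error, while 98 lost a call, 28 gained one and 8 changed sign, none of them a call. With single arrays left out, these 8 ranged from -0.36 to 0.00407 for *Adamts18* in the knock-down difference (0.00407 without stimulated wild-type array 2), and in the TNF-α response from -0.26 to 0.073 for *Mmp2*, -0.52 to 0.13 for *Mmp19*, -0.13 to 0.40 for *Adamts1*, -0.0745 to 0.20 for *Timp1*, -0.35 to 0.23 for *Adam23* and -0.20 to 0.32 for *Dcn*, where the sign changed with array 3 of a wild-type group left out. *Adamts9* set 10546430 ranged from -0.11 to 0.15 against unstimulated wild type. The cause was not tested.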

Other observations

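*Adamts3*, a procollagen N-propeptidase, and *Adamts17*, another secreted enzyme of the family, were also measured by several probe sets each, 16 and 5. None of these 21 passed the test in any of the 3 comparisons, with or without the block. The *Adamts3* sets had means of 2.13 to 4.61 over the 9 arrays and knock-down differences of -0.45 to 0.10, and the *Adamts17* sets had means of 3.16 to 6.39 and differences of -0.19 to 0.03. Set 10531183 of *Adamts3*, with the largest of these differences (-0.45, 95% interval -0.91 to 0.01, adjusted p = 0.31 from limma), had a mean of 2.94 and overlapping groups.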
